A study of Mus musculus with 47 samples.

Results

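The livers of 2 KO-F1 males, fathered by Scml2-KO sires, were compared with the livers of 2 Ctrl-F1 males, fathered by wild-type littermates of those sires. These 4 libraries, out of 47 samples in the series, were taken by their tissue and generation labels. This part of the series was chosen with earlier results of these data known. All genes with enough counts were then described by gene class and liver pathway, beyond the hepcidin genes Hamp and Hamp2. The question was whether the loss of the Polycomb protein SCML2 in the paternal germline left a trace in a somatic organ of the sons. Both groups were made by intracytoplasmic sperm injection (ICSI) of cryopreserved testicular sperm, were carried by pseudopregnant ICR females and were sampled at 8 to 12 weeks of age on a standard diet. The Scml2-KO (-/y) and wild-type sires were C57BL/6, and the methods name BDF1 females as the source of the oocytes for live offspring, while the labels give the strain of the F1 males as BDF2. Scml2 lies on the X chromosome, which sons receive from their mother, so the males of both groups carried a wild-type maternal Scml2 and neither group was itself mutant. BDF1 oocytes also segregate C57BL/6 and DBA/2 alleles. With 2 animals a group, maternal alleles that happened to differ between the groups and an effect of the sire cannot be told apart. The labels number the libraries as replicates and do not name litters, so every p-value measures the spread between these samples only.

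SCML2 is a Polycomb protein of the male germline that works with the repressive complexes PRC1 and PRC2. Polycomb complexes keep developmental genes silent through marks on histones, some of which persist in sperm. The liver turns over glucose, lipids, bile acids and amino acids, secretes most plasma proteins, and answers inflammatory signals within hours through interferon, interleukin 6 and stress kinase pathways.

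The libraries held between 11339729 and 14278900 counts, with 13864 to 14326 genes counted at least once, and 11505 genes had enough counts to be tested. Scml2 itself had 0 counts in all 4 livers, which allows up to 3 counts, or 0.21 to 0.265 CPM (counts scaled to a common library size), per library, so it does not check the labels. The liver label was borne out by its markers. All 13 hepatocyte markers in the files were tested, and albumin (Alb) alone took 79972 and 78803 CPM in the Ctrl-F1 and 80342 and 89339 CPM in the KO-F1 libraries. Germ cell markers (Prm1, Prm2, Tnp1, Ddx4, Dazl) and the pancreatic enzymes Prss2, Cpa1, Pnlip and Ctrb1 were at 0 throughout. Rn45s, the 45S ribosomal RNA precursor, took 0.636% and 0.706% of the Ctrl-F1 counts but 1.21% and 1.59% of the KO-F1 counts. In bulk tissue, fewer cells of a type and less RNA per cell cannot be told apart.

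The libraries also differed by transcript length, and this touches every gene class below. The median log2 fold change of KO-F1 over Ctrl-F1 was 0.20 among the 2290 shortest transcripts (65 to 1754 bases) and -0.17 among the 2285 longest (5077 to 123179 bases). Of the shortest transcripts, 42.3% were higher in both KO-F1 libraries than in both Ctrl-F1 libraries, against 7.92% of the longest. Both Ctrl-F1 libraries lay on one side of this trend and both KO-F1 libraries on the other, with the replicates numbered 2 at the ends, so a trend of length and the difference between the groups cannot be told apart. GC content added a trend that was strongest in KO-F1 replicate 2. The share of Rn45s also moved with the groups, and its part in either trend was not tested. Medians are therefore also given after a smooth trend on transcript length was removed from each library, which brought the median of every length class to within -0.03 and 0.01.

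**Figure D1:**
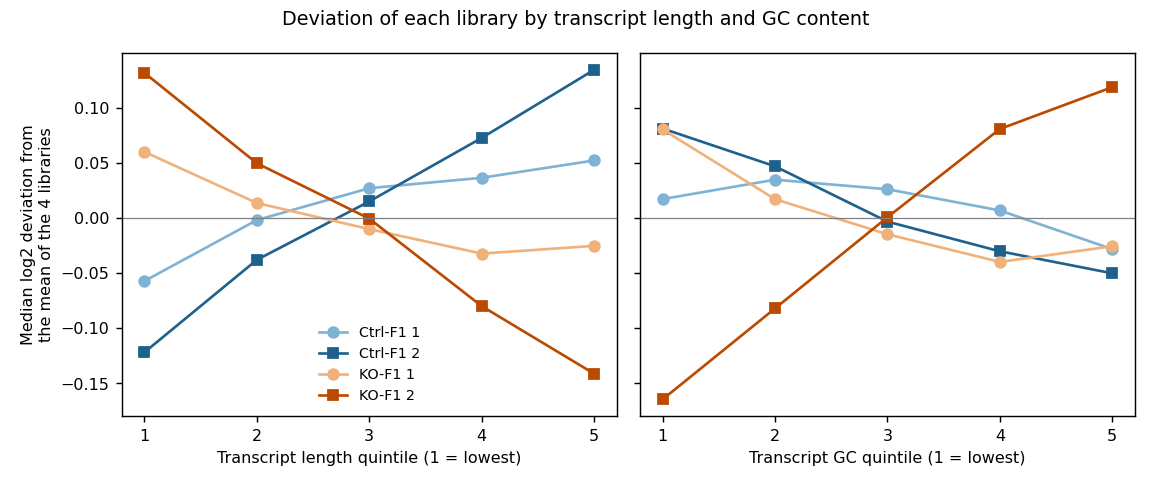
Median log2 deviation of each library from the mean of the 4 libraries, in 5 bins of genes by transcript length (left) and by transcript GC content (right), with 1 line per library. By length, KO-F1 replicate 2 runs from 0.13 to -0.14 and Ctrl-F1 replicate 2 from -0.12 to 0.13, with the other 2 libraries between them.

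No gene passed the threshold, an adjusted p under 0.01 together with a 2-fold or larger difference, in edgeR's quasi-likelihood test (0 of 11505 genes, 0%). At an unadjusted p under 0.05, edgeR listed 459 genes as higher in KO-F1 (3.99% of those tested) and 624 as lower (5.42%). DESeq2, the tool the study used, passed 20 of 7306 genes at the same threshold (0.274%), 7 higher and 13 lower. Leaving out 1 library brought edgeR's count to 107 (without Ctrl-F1 replicate 1), 51 (without Ctrl-F1 replicate 2), 9 (without KO-F1 replicate 1) or 4 (without KO-F1 replicate 2). The median absolute log2 difference was 0.209 between the Ctrl-F1 replicates, 0.258 between the KO-F1 replicates and 0.211 between the group means. These are not like quantities, since a mean of 2 libraries varies less than a single library. They are given as a description of the spread only. The values of 2320 genes (20.2%) were higher in both KO-F1 libraries than in both Ctrl-F1 libraries, and those of 2464 (21.4%) were lower. These genes are called apart below. Among them, 139 higher and 188 lower genes differed by a fold of at least 2. Counts of apart members in any gene class are to be read beside these shares of all genes. An exact permutation test of 2 against 2 libraries cannot give a two-sided p below 0.333 for a single gene. Every difference described from here on is therefore a level with its spread and not a call, except where DESeq2 is named.

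The gene nearest to the edgeR threshold was Hamp2, a near-identical copy of the hepcidin gene Hamp. Hamp2 stood at 1201 and 1153 CPM in the Ctrl-F1 and 95.6 and 51.8 CPM in the KO-F1 libraries, a log2 fold change of -4.0 ± 0.30 (SE) with an adjusted p of 0.014 in edgeR. Hamp, which encodes the hormone that blocks iron export, stood at 540.1 and 427 CPM in Ctrl-F1 and 1421 and 1360.4 CPM in KO-F1. The pair lay in opposite directions with wide gaps between the groups, and reads that both copies share may have been split between them. That split was not tested, and the maternal alleles that these animals carried at the pair were not read here.

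Among genes with higher values in KO-F1, the smallest p belonged to Dusp1, a phosphatase that switches off MAP kinases. Dusp1 stood at 16.8 and 12.4 CPM in the Ctrl-F1 and 42.7 and 47.5 CPM in the KO-F1 libraries (log2 fold change 1.63 ± 0.19, adjusted p = 0.080 in edgeR and 8.8e-07 in DESeq2). Pttg1, which encodes securin and guards sister chromatids in mitosis, stood at 17.6 and 20.4 CPM in Ctrl-F1 and 41.5 and 43.8 CPM in KO-F1 (log2 fold change 1.17 ± 0.16, adjusted p = 0.15). In both genes the replicates of a group lay close together and far from the other group. Klf10, a TGF-beta inducible repressor, stood at 23.9 and 17.3 and 62.4 and 45.4 CPM in the same order, and Socs3, the feedback inhibitor of interleukin 6 signalling, at 3.49 and 5.04 and 14.9 and 43.5 CPM. For Socs3 the KO-F1 replicates themselves lay almost 3 times apart, and both exceeded both controls. Ifi202b, an interferon-inducible DNA sensor on chromosome 1, had 0 counts in both Ctrl-F1 libraries and 45 and 31 counts in the KO-F1 libraries. This is at least 30.4-fold higher, against a floor of 3 counts over the Ctrl-F1 group. It was the only gene counted in 1 group and absent from the other, where absent is 0 counts in both libraries and counted is at least 10 in each. The expression of Ifi202b is known to differ between inbred strains, and the alleles that these animals carried were not read here.

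Among genes with lower values in KO-F1, Scarb2, a lysosomal membrane receptor that carries glucocerebrosidase, stood at 94.2 and 117 CPM in Ctrl-F1 and 36.3 and 39.5 CPM in KO-F1 (log2 fold change -1.48 ± 0.17, adjusted p = 0.080 in edgeR and 4.5e-08 in DESeq2). Mia2, which helps to load lipoproteins and other large cargo at endoplasmic reticulum exit sites, stood at 30.4 and 35.5 CPM against 12.1 and 10.4 CPM (log2 fold change -1.55 ± 0.18, adjusted p = 0.080). Sae1, a subunit of the enzyme that activates SUMO, stood at 49.8 and 47.0 CPM against 18.4 and 21.9 CPM (log2 fold change -1.26 ± 0.16, adjusted p = 0.11). The lower genes shared no single role. They also held the X-linked deubiquitinase Usp9x (-1.18), the heparan sulfate enzyme Ndst1 (-1.12), the complement protease Masp1 (-1.09), the trafficking adaptor Hook1 (-1.11) and the translation repressor Eif4ebp2 (-1.03), given as log2 fold changes. All of these were apart, and all but Eif4ebp2 were among the 20 genes that passed in DESeq2. The 20 genes of DESeq2 were all apart in the CPM used here.

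**Figure D2:**
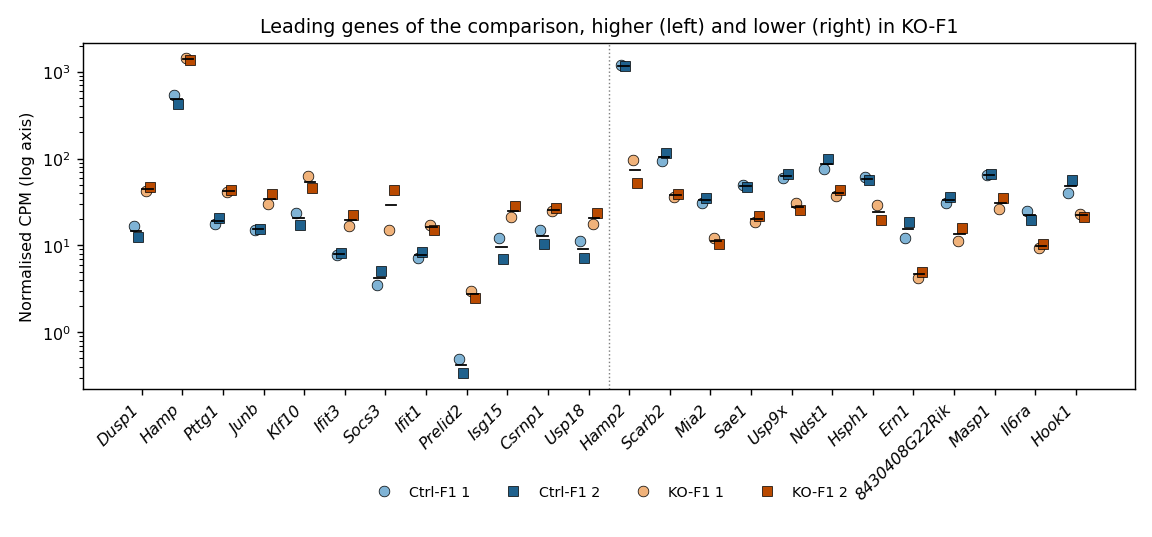
Normalised CPM (log axis) of the leading genes in each of the 4 libraries, 12 with higher values in KO-F1 on the left and 12 with lower values on the right, with the group mean as a bar. In each gene both KO-F1 points lie on the same side of both Ctrl-F1 points, and the gap is widest in Hamp2, from 1153 CPM in the lower control to 95.6 CPM in the higher KO-F1 library.

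Interferon response genes formed the gene class with the highest median among the pathway lists. Interferons bind receptors at the cell surface, and their signal reaches the interferon-stimulated response element (ISRE) in front of antiviral genes. Of 37 members tested, 32 had higher values in KO-F1. Of these 37, 18 were apart on the higher side and 0 on the lower side, against 20.2% and 21.4% of all genes. At an unadjusted p under 0.05, 12 were higher and 0 lower, against 3.99% and 5.42% of all genes. The median log2 fold change was 0.56, beside -0.01 over all genes tested, and 0.54 after the length correction. The antiviral effectors, 19 of the members, had 12 that were apart on the higher side. The promoters of the 3 leading effectors are shown because each holds the ISRE core GAAANNGAAA on either strand. The core was found in 228 of 8639 promoters of tested genes (2.64%) and in 12 of 28 promoters of this list (42.9%). These shares describe the letters of the promoters and do not measure expression in the livers. Each line gives the 250 bases before the RefSeq start (GRCm38.p6), 5′ to 3′ along the gene, with every match in capitals. They lie at chr19:34640639-34640888 on the plus strand with 2 matches for Ifit1, at chr19:34583279-34583528 on the plus strand with 2 matches for Ifit3, and at chr4:156200819-156201068 on the minus strand with 3 matches for Isg15, some of which overlap.
Ifit1: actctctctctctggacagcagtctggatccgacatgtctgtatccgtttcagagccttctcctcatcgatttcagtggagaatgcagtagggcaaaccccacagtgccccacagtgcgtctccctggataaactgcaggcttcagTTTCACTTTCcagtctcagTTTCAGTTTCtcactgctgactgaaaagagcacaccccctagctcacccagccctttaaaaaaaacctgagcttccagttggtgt
Ifit3: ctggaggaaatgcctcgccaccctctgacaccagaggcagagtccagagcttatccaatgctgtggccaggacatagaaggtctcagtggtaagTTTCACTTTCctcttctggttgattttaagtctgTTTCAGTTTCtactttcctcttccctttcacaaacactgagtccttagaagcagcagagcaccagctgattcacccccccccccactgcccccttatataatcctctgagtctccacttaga
Isg15: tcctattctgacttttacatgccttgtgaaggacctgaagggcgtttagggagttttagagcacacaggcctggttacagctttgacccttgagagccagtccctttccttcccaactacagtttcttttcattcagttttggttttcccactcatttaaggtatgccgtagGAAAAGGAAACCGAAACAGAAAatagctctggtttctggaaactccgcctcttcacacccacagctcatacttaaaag

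Ifit3, which binds to Ifit1 to hold foreign RNA, stood at 7.82 and 8.27 CPM in the Ctrl-F1 and 16.7 and 22.1 CPM in the KO-F1 libraries (log2 fold change 1.27 ± 0.22, adjusted p = 0.27 in edgeR). Ifit1 stood at 7.18 and 8.47 CPM against 17.2 and 15.1 CPM (log2 fold change 1.05 ± 0.21). Isg15, a ubiquitin-like modifier, stood at 12.3 and 7.06 CPM against 21.4 and 28.4 CPM (log2 fold change 1.36 ± 0.28). Being apart was part of the rule that named these 3 genes, and their levels were modest for a liver library. Usp18, which removes ISG15 from its targets and damps the receptor, stood at 11.2 and 7.12 CPM against 17.5 and 23.7 CPM. Iigp1, an interferon-gamma induced GTPase and the most abundant of the class, stood at 343 and 249 CPM against 436 and 440.3 CPM (log2 fold change 0.57 ± 0.19).

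The class leaned on 1 library. The median log2 deviation of its members was -0.23 in both Ctrl-F1 libraries, -0.07 in KO-F1 replicate 1 and 0.49 in KO-F1 replicate 2. Without KO-F1 replicate 2 the median was 0.16, and without KO-F1 replicate 1 it was 0.95. The same library stood highest for antigen presentation. Of 20 tested genes of the major histocompatibility complex (H2), 8 were apart on the higher side and 0 on the lower side, with a median of 0.56, or 0.42 after the length correction and 0.08 without KO-F1 replicate 2. H2-D1, a class I heavy chain, stood at 256 and 169 CPM in Ctrl-F1 and 293 and 398 CPM in KO-F1. The class II chain H2-Ab1, which macrophages and B cells display, stood at 12.2 and 21.7 against 13.9 and 40.1 CPM, so its groups overlapped and only KO-F1 replicate 2 was above both controls. H2 genes resemble each other, and how their reads were split is uncertain. The summed level of the 7 Kupffer cell markers, which mark the macrophages of the liver, was 174 and 244 CPM in Ctrl-F1 and 165 and 349 CPM in KO-F1. None of these 7 was apart, and none of their defining genes was at 0. Lymphocyte markers summed to 2.42 and 4.91 CPM in Ctrl-F1 and 4.08 and 8.98 CPM in KO-F1. The part of these cells in the interferon and H2 values was not tested.

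**Figure D3:**
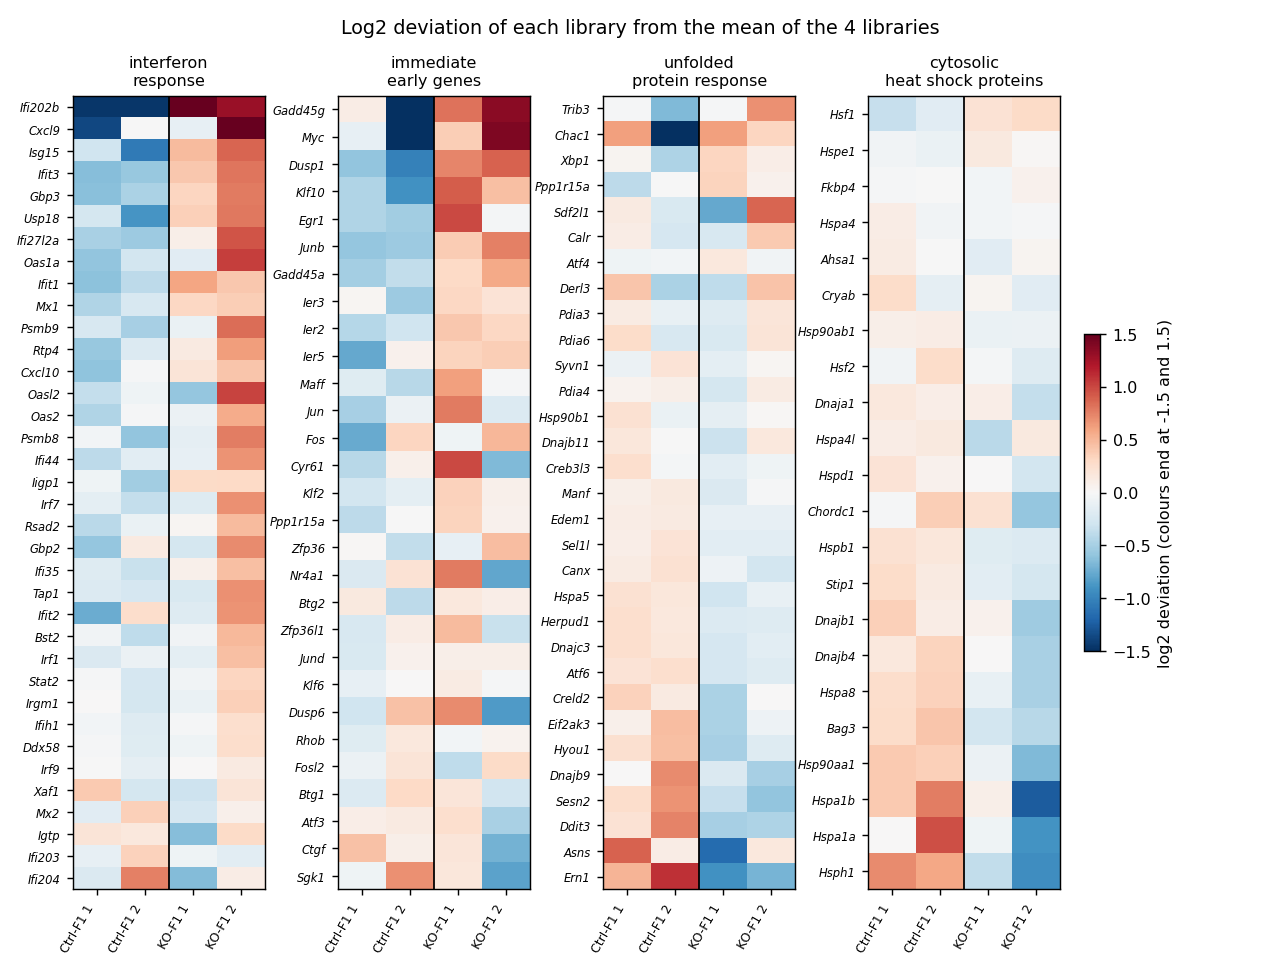
Log2 deviation of tested members of 4 gene classes from their mean over the 4 libraries, 1 row per gene and 1 column per library, red above and blue below the mean (colours end at -1.5 and 1.5). Interferon genes are reddest in KO-F1 replicate 2. Of 29 immediate early genes, 14 lie higher in both KO-F1 libraries than in both controls. Of the chaperone panels, 16 of 31 unfolded protein response genes and 12 of 22 heat shock genes lie lower in both KO-F1 libraries than in both controls.

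Immediate early genes, the transcription factors and regulators that cells switch on within minutes of a growth or stress signal, were also on the higher side in KO-F1. Of 29 tested members, 24 had higher values. On the higher side 14 were apart and on the lower side 0, against 20.2% and 21.4% of all genes. At an unadjusted p under 0.05, 8 were higher and 0 lower, against 3.99% and 5.42% of all genes. Their median log2 fold change was 0.46, or 0.39 after the length correction, and it lay between 0.27 (without KO-F1 replicate 1) and 0.60 (without KO-F1 replicate 2) when single libraries were left out. The median log2 deviation of the members was -0.23 and -0.01 in the Ctrl-F1 libraries and 0.34 and 0.07 in the KO-F1 libraries, so here KO-F1 replicate 1 stood highest. Junb, a member of the AP-1 family, stood at 15.2 and 15.6 CPM in Ctrl-F1 and 30.1 and 39.2 CPM in KO-F1 (log2 fold change 1.17 ± 0.19, adjusted p = 0.25 in edgeR). Ier2, another member, stood at 17.8 and 19.4 against 32.1 and 30.0 CPM. In both genes the groups did not overlap. Csrnp1, an AXIN1-induced nuclear protein outside the list and named among all genes, stood at 15.1 and 10.5 against 24.8 and 26.9 CPM. Myc, the growth-promoting transcription factor, stood at 11.6 and 3.70 CPM in Ctrl-F1 and 16.5 and 34.4 CPM in KO-F1, and the stress sensor Gadd45g at 22.0 and 3.76 against 35.9 and 52.4 CPM. Myc varied widely within both groups and Gadd45g within the controls, and both genes were apart on the higher side. The hallmark gene Fos did not separate the groups, with 0.213 and 1.01 CPM in Ctrl-F1 and 0.653 and 1.20 CPM in KO-F1.

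The promoters of Dusp1 and Socs3 are shown for the elements through which such signals act. The full cyclic AMP response element (CRE, TGACGTCA) was found in 233 of 8639 promoters (2.70%) and in 3 of 23 promoters of immediate early genes (13%), that of Dusp1 among them. The STAT element (TTCNNNGAA) was found in 540 of 8639 promoters (6.25%), in 2 of 23 promoters of immediate early genes (8.70%) and in 1 of 18 of the interleukin 6 and STAT3 list (5.56%), which is that of Socs3. Both motifs read the same on either strand in their fixed letters, and each promoter holds 1 match, in capitals. They lie at chr17:26508473-26508722 (Dusp1) and chr11:117969367-117969616 (Socs3), both on the minus strand of GRCm38.p6, from RefSeq. A match describes these letters only.
Dusp1: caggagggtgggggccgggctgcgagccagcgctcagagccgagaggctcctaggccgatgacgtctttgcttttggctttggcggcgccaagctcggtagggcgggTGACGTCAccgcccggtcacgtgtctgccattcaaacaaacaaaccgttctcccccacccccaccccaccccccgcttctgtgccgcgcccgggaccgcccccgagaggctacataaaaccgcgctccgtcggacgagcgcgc
Socs3: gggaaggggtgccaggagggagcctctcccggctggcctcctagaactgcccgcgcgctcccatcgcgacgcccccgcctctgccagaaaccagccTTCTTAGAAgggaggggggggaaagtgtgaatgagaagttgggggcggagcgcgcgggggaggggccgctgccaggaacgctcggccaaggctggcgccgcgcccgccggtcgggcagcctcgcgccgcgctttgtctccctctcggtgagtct

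Interleukin 6 signalling showed its receptor and its inhibitor on opposite sides. Interleukin 6 binds the receptor Il6ra and the shared subunit Il6st (gp130), which activate STAT3, and STAT3 induces Socs3 and the acute phase proteins. Il6ra stood at 25.1 and 19.7 CPM in Ctrl-F1 and 9.39 and 10.4 CPM in KO-F1 (log2 fold change -1.18 ± 0.20, adjusted p = 0.27 in edgeR), and Il6st at 58.8 and 72.2 against 45.6 and 37.5 CPM. The phosphatase Ptpn11, which docks on gp130, stood at 54.7 and 62.2 against 40.7 and 40.0 CPM. These 3 were apart on the lower side, while Socs3 was apart on the higher side with a log2 fold change of 2.77 ± 0.48. Over the 21 tested members of the pathway, 3 were apart on the higher side and 4 on the lower side, with a median of 0.02, so the pathway as a whole did not lean.

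Of the positive acute phase proteins, whose secretion goes up in inflammation, 5 of 23 tested members were apart on the higher side and 2 on the lower side, a share close to the 20.2% and under the 21.4% of all genes. Of the negative ones, whose secretion goes down, 3 of 5 were apart on the higher side and 0 on the lower side. The median of all 28 was 0.29, or 0.12 after the length correction, 0.04 without KO-F1 replicate 2, 0.09 without Ctrl-F1 replicate 2 and 0.53 without either of the others. The defining members varied more between animals than between groups. Saa1, a serum amyloid, stood at 305 and 27.3 CPM in Ctrl-F1 and 71.2 and 234 CPM in KO-F1, and its neighbour Saa2 at 76.5 and 8.94 against 12.8 and 99.8 CPM. Saa1 and Saa2 are close copies, and in both 1 animal of each group was high. Saa3, the serum amyloid of macrophages and stressed cells, stood at 6.33 and 4.37 against 7.59 and 24.3 CPM, with KO-F1 replicate 2 alone far above the rest.

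Iron genes beyond the hepcidins did not lean to one side. Of 31 tested members, 7 were apart on each side, and the median was 0.05. Hfe2 (hemojuvelin), the co-receptor through which BMP ligands induce hepcidin, stood at 49.9 and 52.3 CPM in Ctrl-F1 and 65.0 and 82.5 CPM in KO-F1, and the BMP target Id3 at 27.8 and 38.2 against 78.0 and 54.3 CPM. Both were apart on the higher side, as was Hamp. Tfrc, the transferrin receptor, stood at 21.1 and 45.3 against 20.2 and 11.6 CPM, apart on the lower side with the lower control close to the higher KO-F1 library. The storage protein ferritin light chain, Ftl1, stood between 2880.3 and 3461 CPM in all 4 libraries.

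Genes of protein folding lay on the lower side in KO-F1. The unfolded protein response uses the sensors IRE1 (Ern1), PERK (Eif2ak3) and ATF6 (Atf6) to raise chaperones when the endoplasmic reticulum is loaded. Of 31 tested members, 16 were apart on the lower side and 3 on the higher side, against 21.4% and 20.2% of all genes. At an unadjusted p under 0.05, 11 were lower and 0 higher, against 5.42% and 3.99% of all genes. The median was -0.23, or -0.19 after the length correction, and between -0.33 and -0.18 when single libraries were left out. All 3 sensors were apart on the lower side. Ern1 stood at 12.2 and 18.6 CPM in Ctrl-F1 and 4.24 and 5.00 CPM in KO-F1 (log2 fold change -1.74 ± 0.29, adjusted p = 0.25 in edgeR and 0.0022 in DESeq2), Eif2ak3 at 16.9 and 22.2 against 11.3 and 15.2 CPM and Atf6 at 81.7 and 84.3 against 59.2 and 61.8 CPM. The sensor transcripts are long, and with the length correction 1 of the 3 was lower at an unadjusted p under 0.05, against 4.35% of all genes in that fit. Hyou1, a chaperone of the endoplasmic reticulum, stood at 160.1 and 184 against 95.2 and 119 CPM, and Hspa5 (BiP), the chaperone that holds the sensors inactive, at 990.4 and 947 against 686 and 782 CPM. Ddit3 (CHOP), which promotes death under prolonged stress, stood at 4.48 and 6.65 against 2.53 and 2.59 CPM. These 3 genes were apart on the lower side. Xbp1, whose messenger RNA IRE1 splices, lay on the other side at 321 and 226 against 389 and 333 CPM.

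Cytosolic heat shock proteins showed the lowest median of all pathway lists, -0.29, or -0.33 after the length correction and -0.44 without KO-F1 replicate 1. The list also counts a pair of mitochondrial chaperonins, which were apart on opposite sides. Of 22 tested members, 12 were apart on the lower side and 2 on the higher side, against 21.4% and 20.2% of all genes. At an unadjusted p under 0.05, 7 were lower and 1 higher, against 5.42% and 3.99% of all genes. Hsph1, a nucleotide exchange factor for HSP70, stood at 61.3 and 56.0 CPM in Ctrl-F1 and 28.8 and 19.4 CPM in KO-F1 (log2 fold change -1.28 ± 0.21, adjusted p = 0.25 in edgeR and 0.0004 in DESeq2). Hspa8, the constitutive HSP70, stood at 627 and 664 against 482 and 372 CPM, and its co-chaperone Bag3 at 38.9 and 43.2 against 26.5 and 24.0 CPM. The inducible HSP90, Hsp90aa1, stood at 75.1 and 73.3 against 53.5 and 35.8 CPM. In these 4 genes both KO-F1 values lay under both controls, with KO-F1 replicate 2 the lowest each time. The heat shock factor Hsf1, which drives them, was apart on the higher side at 10.6 and 12.0 against 15.9 and 16.7 CPM. Hspa1a and Hspa1b, the inducible HSP70 genes, are near-identical copies and their counts are uncertain.

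Glucose genes also lay on the lower side. The fasting liver makes glucose from amino acids and lactate through PEP carboxykinase (Pck1) and glucose 6-phosphatase (G6pc). Of 30 tested genes of glucose metabolism, 15 were apart on the lower side and 2 on the higher side, against 21.4% and 20.2% of all genes. At an unadjusted p under 0.05, 10 were lower and 0 higher, against 5.42% and 3.99% of all genes. The median was -0.22, and -0.17 after the length correction. In gluconeogenesis, 6 of 9 tested genes were apart on the lower side and 1 on the higher side. Tat, the tyrosine aminotransferase that glucocorticoids induce, stood at 1453 and 2267 CPM in Ctrl-F1 and 1046 and 994 CPM in KO-F1 (log2 fold change -0.87 ± 0.23), and Pck1 at 2832 and 2760.2 against 1511 and 2187 CPM (log2 fold change -0.60 ± 0.22). G6pc stood at 142 and 419 against 130.0 and 102 CPM, so that 1 control made most of the difference. Of the fasting-induced genes of insulin signalling, Irs2 stood at 4.55 and 4.30 against 2.45 and 1.85 CPM and Igfbp1 at 16.5 and 10.6 against 8.16 and 2.50 CPM. These 5 genes were apart on the lower side. Pfkfb3, which stimulates the opposite process, glycolysis, was apart on the lower side too, at 46.2 and 30.3 against 26.5 and 16.9 CPM.

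Fatty acid oxidation was on the lower side in nearly every member, but the class leaned on KO-F1 replicate 2. PPARA is the nuclear receptor that fasting fatty acids activate, and it drives oxidation in mitochondria and peroxisomes. Of 37 tested members, 36 had lower values in KO-F1. On the lower side 15 were apart and on the higher side 1, against 21.4% and 20.2% of all genes. At an unadjusted p under 0.05, 4 were lower and 0 higher, against 5.42% and 3.99% of all genes. The median was -0.23, or -0.26 after the length correction. Pex11a, which divides peroxisomes, stood at 28.7 and 34.5 CPM in Ctrl-F1 and 18.1 and 16.9 CPM in KO-F1 (log2 fold change -0.85 ± 0.17, adjusted p = 0.35 in edgeR). The mitochondrial trifunctional protein subunit Hadhb stood at 130.3 and 107 against 93.0 and 74.5 CPM, and Etfdh, which passes the electrons of oxidation to the respiratory chain, at 293 and 262 against 222 and 180.2 CPM. Cpt1a, the gate of fatty acid entry into mitochondria, stood at 436 and 352 against 312 and 263 CPM. The most inducible targets followed single animals. Cyp4a14 stood at 14.2 and 143 CPM in Ctrl-F1 and 72.2 and 1.20 CPM in KO-F1, and Cyp4a10 at 94.8 and 188 against 154 and 10.2 CPM, so the groups overlapped and KO-F1 replicate 2 was the lowest. The median log2 deviation of the members was 0.14 and 0.08 in the Ctrl-F1 libraries, 0.07 in KO-F1 replicate 1 and -0.35 in KO-F1 replicate 2. Without KO-F1 replicate 1 the median was -0.54, and without KO-F1 replicate 2 it was -0.12.

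Fat synthesis as a class held no excess of apart genes. Of 26 tested members, 4 were apart on the lower side and 2 on the higher side, against 21.4% and 20.2% of all genes. At an unadjusted p under 0.05, 4 were lower and 1 higher, against 5.42% and 3.99% of all genes. The median of -0.15, or -0.19 after the length correction, turned to 0.17 without Ctrl-F1 replicate 2. In its triglyceride synthesis branch, 3 of 7 tested genes were apart on the lower side and 1 on the higher side, with a median of -0.53. Some of its genes did lie lower in both KO-F1 libraries. Gpam, the mitochondrial acyltransferase that starts glycerolipid synthesis, stood at 62.1 and 117 CPM in Ctrl-F1 and 31.6 and 28.2 CPM in KO-F1 (log2 fold change -1.59 ± 0.28, adjusted p = 0.31 in edgeR and 3.1e-05 in DESeq2). Lpin1, a phosphatidate phosphatase, stood at 162 and 112 against 78.3 and 89.9 CPM, and the desaturase Fads2 at 282 and 376 against 209.6 and 158 CPM. The main lipogenic enzymes did not separate the groups. Scd1, the stearoyl-CoA desaturase, stood at 1980.3 and 12566 CPM in Ctrl-F1 and 8591 and 3926 CPM in KO-F1, and the fatty acid synthase Fasn at 176 and 672 against 470.4 and 422 CPM. In both, the 2 controls lay further apart than the groups.

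**Figure D4:**
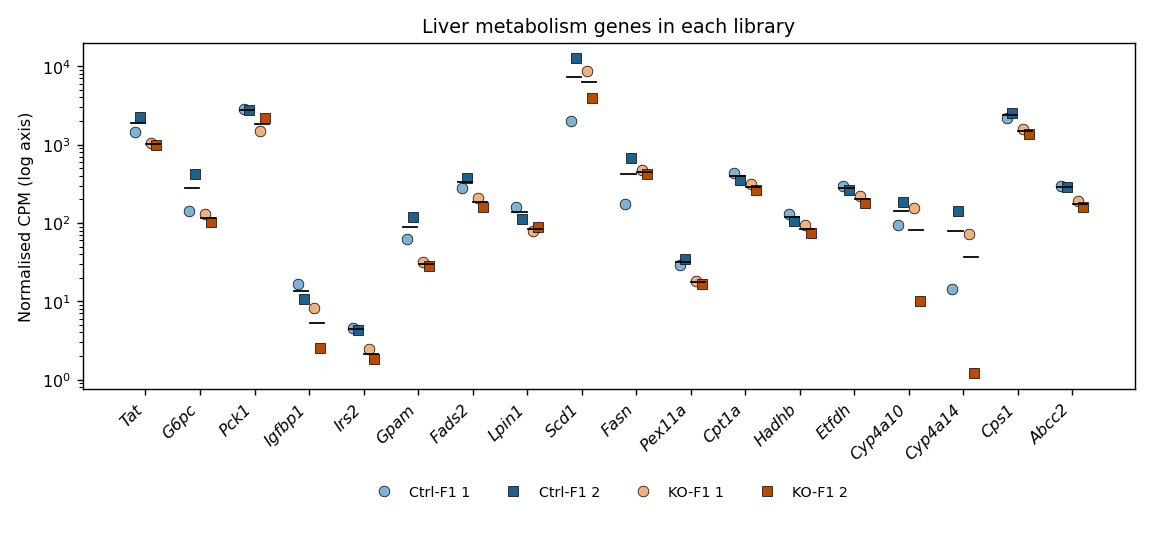
Normalised CPM (log axis) of 18 genes of glucose, lipid, urea and bile metabolism in each of the 4 libraries, with the group mean as a bar. Tat, Pck1, Irs2, Gpam, Pex11a, Cps1 and Abcc2 have both KO-F1 points under both Ctrl-F1 points, while Scd1, Fasn, Cyp4a10 and Cyp4a14 overlap.

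In bile acid metabolism, synthesis had 0 of 9 tested genes apart on the higher side and 3 on the lower side. Export had 4 of 6 apart on the lower side and 0 on the higher side. Of all genes, 20.2% were apart on the higher side and 21.4% on the lower side. Abcc2 (MRP2), which pumps bilirubin conjugates into bile, stood at 299 and 283 CPM in Ctrl-F1 and 190.1 and 161 CPM in KO-F1 (log2 fold change -0.73 ± 0.16). Abcc3, its counterpart on the blood side, stood at 248 and 271 against 213 and 165 CPM. Klb, the co-receptor of FGF15 that restrains bile acid synthesis, stood at 26.0 and 27.4 against 19.1 and 16.4 CPM, and Cyp7a1, the rate-limiting enzyme of that synthesis, at 120.3 and 155 against 113 and 105 CPM. These 4 were apart on the lower side, Cyp7a1 by little.

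Of the urea cycle, Cps1, the mitochondrial enzyme that fixes ammonia, stood at 2212 and 2504 CPM in Ctrl-F1 and 1587 and 1365 CPM in KO-F1 (log2 fold change -0.68 ± 0.18), while Arg1, the cytosolic last step, stood at 1729 and 1469 against 1979.9 and 1938 CPM. The 2 enzymes were apart in opposite directions, and the 7 tested cycle genes had a median of 0.10. Of 29 genes of the cycle and of amino acid breakdown, 6 were apart on the higher side and 4 on the lower side. Tdo2, which opens tryptophan breakdown, was apart on the lower side at 1574 and 1517 against 1130.4 and 1074 CPM.

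Drug metabolism showed lower values in some of its branches. Glucuronidation had 6 of 16 tested Ugt genes apart on the lower side and 2 on the higher side, with a median of -0.15, or -0.23 after the length correction and -0.27 without KO-F1 replicate 1. Ugt3a1 stood at 79.7 and 79.8 CPM in Ctrl-F1 and 53.9 and 39.0 CPM in KO-F1. Ugt1a6a and Ugt1a6b share all but their first exon, so their counts are uncertain and are not given. Carboxylesterases (Ces) had 6 of 14 apart on the lower side and 0 on the higher side. Glutathione transferases (Gst) had 4 of 19 apart on the higher side, close to the share over all genes, and 1 on the lower side. After the length correction these counts were 1 and 3, where 17.3% of all genes were apart higher and 20.5% lower, and the median went from 0.09 to -0.09. The cytochrome P450 list of xenobiotic enzymes had 2 of 38 apart on the higher side and 4 on the lower side, fewer on both sides than the 20.2% and 21.4% over all genes. Cyp2e1, the ethanol-metabolising enzyme, stood at 11717 and 6720.0 CPM in Ctrl-F1 and 11079 and 7544 CPM in KO-F1, with more spread within each group than between them.

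The largest block of short genes was that of translation and respiration. Of 80 tested cytosolic ribosomal protein genes, 66 were apart on the higher side and 1 on the lower side, against 20.2% and 21.4% of all genes. At an unadjusted p under 0.05, 36 of these genes were higher and 0 lower, against 3.99% and 5.42% of all genes. Their median log2 fold change was 0.31, and their median transcript length was 944 bases. After the length correction the median was 0.06, with 30 apart on the higher side and 11 on the lower side, against the same 17.3% and 20.5% of all genes. After the correction 3 were higher at an unadjusted p under 0.05 and 0 lower, against 2.51% of all genes higher and 4.35% lower. Complex I of the respiratory chain had 33 of 44 genes apart on the higher side and a median of 0.23, which the correction brought to 0.05. ATP synthase with complexes III and IV went from 0.25 to -0.02, proteasome subunits from 0.14 to -0.02 and mitochondrial ribosomal proteins from 0.17 to 0.02. The families of long transcripts moved the other way. ABC transporters had 15 of 38 genes apart on the lower side and a median of -0.23, or -0.11 after the correction, and ubiquitin-specific proteases had 19 of 42 and went from -0.23 to -0.13. The latter median was -0.38 without KO-F1 replicate 1 and -0.13 without either replicate 2. Solute carriers had 45 of 195 apart on the lower side (23.1%), close to the 21.4% of all genes. On the higher side 15 were apart (7.69%), against 20.2% of all genes. Their median was -0.10 before and after the correction.

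**Figure D5:**
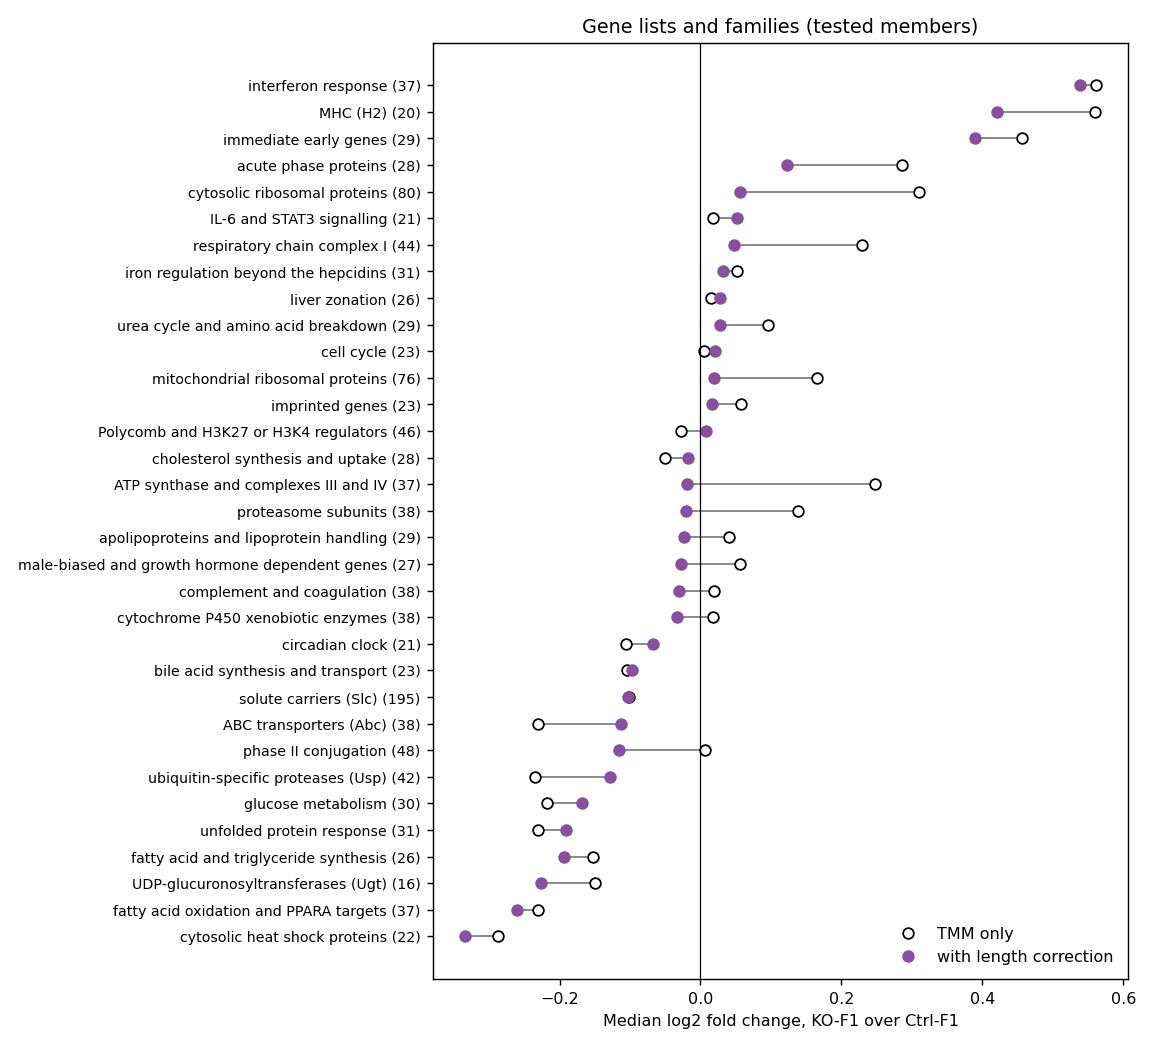
Median log2 fold change (KO-F1 over Ctrl-F1) of the tested members of pathway lists and symbol families, before (open points) and after (filled points) the correction for transcript length, with the number of tested genes in brackets. Of the classes drawn, interferon response, MHC and immediate early genes stay highest and cytosolic heat shock proteins lowest, while ribosomal and respiratory genes shift from between 0.17 and 0.31 to between -0.02 and 0.06.

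Secreted plasma proteins held both kinds of value. Apolipoproteins, with a median transcript length of 1035 bases, had 8 of 13 tested genes apart on the higher side and 2 on the lower side. After the length correction 4 were apart on the higher side, the number higher at an unadjusted p under 0.05 went from 4 to 0, and the median went from 0.34 to 0.15. Apoc3, which slows the clearance of triglyceride-rich particles, stood at 2012 and 1904 CPM in Ctrl-F1 and 2649.6 and 3544 CPM in KO-F1 (log2 fold change 0.66 ± 0.20, or 0.37 after the length correction). Apom, a carrier of sphingosine 1-phosphate, was apart on the lower side at 222 and 196 against 139.6 and 173 CPM (log2 fold change -0.42 ± 0.17, or -0.65 after the length correction). Complement and coagulation genes had 4 of 38 apart on each side, and the median was 0.02. Among them, the kininogen Kng1 stood at 2618 and 2298 against 3193 and 3718 CPM and the clotting factor subunit F13b at 195 and 188 against 144 and 131 CPM, apart in opposite directions.

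Hepatocyte markers had 6 of 13 apart on the higher side and 2 on the lower side, against 20.2% and 21.4% of all genes. Their median was 0.20, or 0.11 after the length correction and 0.03 without KO-F1 replicate 2. Markers of other liver cells had 1 of 24 apart on the higher side and 2 on the lower side (0.13, or 0.01 after the length correction). The medians of the remaining lists lay near that of all genes. Male-biased and growth hormone dependent genes had 5 of 27 apart on the higher side and 0 on the lower side (median 0.06), but the median was 0.34 without Ctrl-F1 replicate 1, 0.20 without KO-F1 replicate 1 and -0.05 without KO-F1 replicate 2. Liver zonation had 4 of 26 on each side (0.02). Cholesterol synthesis and uptake had 4 of 28 on the higher side and 5 on the lower side (-0.05), and the circadian clock had 2 of 21 and 5 (-0.11, or 0.08 without KO-F1 replicate 2 and -0.24 without KO-F1 replicate 1). Nr1d1 (REV-ERB alpha), a clock repressor whose level follows the hour of the day, stood at 52.0 and 59.8 CPM in Ctrl-F1 and 70.1 and 79.3 CPM in KO-F1, apart on the higher side. Cell cycle genes had 8 of 23 apart on the higher side and 2 on the lower side (0.01, or -0.17 without KO-F1 replicate 2). Apart from Pttg1, the mitotic genes were scarce, and Top2a stood at 0.854 and 0.806 CPM against 0.734 and 0.278 CPM.

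A pair of gene groups bears on the design of the study, namely imprinted genes, which are expressed from 1 parental allele, and Polycomb and histone methylation regulators. Of 46 imprinted genes in the files 23 were tested. Of these, 4 were apart on the higher side and 2 on the lower side (median 0.06), against 20.2% and 21.4% of all genes. At an unadjusted p under 0.05 there were 0 in either direction. Of the 7 tested paternally expressed genes 2 were apart on the higher side and 0 on the lower side, and of the 16 maternally expressed genes 2 on each side. Of 46 tested Polycomb and H3K27 or H3K4 regulators, 8 were apart on the higher side (17.4%) and 14 on the lower side (30.4%). The shares of all genes were 20.2% and 21.4%. At an unadjusted p under 0.05, 2 regulators were higher and 1 lower, against 3.99% and 5.42% of all genes. Their median was -0.03, or 0.01 after the length correction. Ring1, an E3 ligase subunit of PRC1, stood at 13.1 and 9.0 CPM in Ctrl-F1 and 18.4 and 15.8 CPM in KO-F1, Phf1, a PRC2 accessory subunit, at 9.25 and 11.2 against 16.6 and 13.8 CPM, and Rbbp7, a histone-binding subunit of PRC2, at 56.7 and 51.7 against 40.5 and 39.0 CPM. Ring1 and Phf1 were apart on the higher side and Rbbp7 on the lower side. By chromosome, median log2 fold changes lay between -0.09 (chromosome 18) and 0.07 (chromosome 7). On the X chromosome, 1.25% of 319 genes were higher and 4.70% lower at an unadjusted p under 0.05, against 3.99% and 5.42% of all genes.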

How the data were processed

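Liver RNA from 2 Ctrl-F1 and 2 KO-F1 males was sequenced from TruSeq Stranded mRNA libraries. The authors deposited raw read counts per gene symbol. According to the methods, single-end reads were aligned to mm10 with HISAT2 2.1.0 and counted with featureCounts, and the submitters' processing notes also name bcl2fastq 2.20.0 and DESeq2 1.16.1. The annotation and the strand setting are not given in the sources used here, so overlapping and antisense genes are uncertain. Spermatozoa, embryo and ChIP-seq samples were not analysed here.

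Of the 23420 lines in each file, 4 were dropped because they repeat 2 symbols, which leaves 23416 genes. Totals of 11339729 to 14278900 counts per library give a detection limit of 3 counts, for counting error only. Comparisons used edgeR 4.0.16 in R 4.3.3 (TMM, filterByExpr with a minimum count of 10 and a minimum total of 15, quasi-likelihood F test, Benjamini-Hochberg adjustment over 11505 genes), and a gene was called when its adjusted p was under 0.01 and its fold change 2 or more. No replicate block was used. Levels are TMM-normalised CPM, and SE is that of the log2 fold change. DESeq2 1.42.0, other normalisations, filters and thresholds, a replicate block and leaving out each library were run as alternatives. A length correction, chosen after seeing the data, used a smooth trend (mgcv 1.9.3) of each library's deviation on GENCODE transcript length, known for 11428 of the tested genes. The length is that of the longest transcript of a symbol, with protein-coding transcripts preferred. Scripts were tested on simulated data. The values of 1 interferon response gene are not reported here, though its list counts it.

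The 26 lists and 37 families were written, and the part of the series was chosen, with earlier results of these data known. Lists are described by counts and medians. Genes were named as the 15 with the smallest p in each direction among those with a fold of at least 2 that were apart, up to 3 members in each direction per list that were apart, the 2 most abundant members per list, and Scml2, Rn45s, Hamp and Hamp2. H2-D1, H2-Ab1, Ier2, Myc, Gadd45g, Fos, Saa1, Saa2, Eif2ak3, Ddit3, Irs2, Igfbp1, Cpt1a, Cyp4a14, Cyp4a10 and Fasn, and the genes of the closing observations, were named after their values were seen. Promoters are from RefSeq, for genes named by the rule.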

Additional observations from a re-analysis of the deposited data

How the results depend on the processing

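The count of called genes depended on the tool and on single libraries. edgeR called 0 genes with DESeq2's size factors, without Rn45s, Hamp and Hamp2, and with the length correction. It called 1 with at least 10 counts in every library and 25 with no filter on low counts, while DESeq2 called 20. Leaving out 1 library gave between 4 genes (without KO-F1 replicate 2) and 107 (without Ctrl-F1 replicate 1), with 51 without Ctrl-F1 replicate 2 and 9 without KO-F1 replicate 1, and between 2 and 9 where the length correction (chosen after seeing the data) was added and any gene was called. The lone library is then assumed to vary like the other group. At an adjusted p under 0.05 and a fold of at least 2, 1 gene passed, and at an adjusted p under 0.1, 5 did.

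The labels number the replicates but tie no animals to each other, and samples of the same number deviated with a correlation of -0.162. A replicate block called 2 genes, and the crossed pairing called 0.

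At an unadjusted p under 0.05, DESeq2 listed 284 higher and 408 lower genes, and leaving out single libraries gave 300 to 705 higher and 371 to 1049 lower genes. With the length correction 289 were higher, and leaving out libraries then gave 200 to 426 higher and 280 to 729 lower genes. The cause was not tested.

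Every median of the leading classes kept its sign under the alternatives run. For the genes whose fold change is printed, 431 refits stayed on their side of the threshold, 72 passed it and 0 changed direction. Leaving out libraries gave, without and with the length correction, 0.16 to 0.95 and 0.16 to 0.92 for interferon response, 0.27 to 0.60 and 0.20 to 0.60 for immediate early genes, -0.33 to -0.18 and -0.36 to -0.12 for the unfolded protein response, -0.44 to -0.21 and -0.54 to -0.24 for heat shock proteins, -0.28 to -0.20 and -0.28 to -0.15 for glucose metabolism and -0.54 to -0.12 and -0.48 to -0.11 for fatty acid oxidation. The length correction alone moved the glucose median to -0.17.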

Other observations

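Some genes set 1 liver apart from the other 3 without regard to the group. Serpina3c, a serine protease inhibitor, had 3898 counts in KO-F1 replicate 1 and 22, 7 and 7 in the other libraries. Moxd1, a monooxygenase-like protein, had 0 counts in KO-F1 replicate 1 and 2021, 58 and 1039 in Ctrl-F1 replicate 1, Ctrl-F1 replicate 2 and KO-F1 replicate 2. Ctse, the aspartic protease cathepsin E, had 2 counts in Ctrl-F1 replicate 1 and 488, 325 and 172 in the others, and Ntrk2, a neurotrophin receptor, had 5 in KO-F1 replicate 2 against 120 to 192. H2-Ea-ps, the alpha chain record of the class II molecule H2-E, had 0 counts in Ctrl-F1 replicate 2 and 56, 57 and 152 in the others, and H2-Q2 had 4 in that same library and 121, 137 and 159 in the others. As background, C57BL/6 mice carry a defective H2-Ea gene, and class II genes of BDF1-derived animals segregate. The alleles of these animals were not read here. In all, 11 genes with at least 50 counts in some library lay at least 8-fold from the nearest other library in 1 library only.

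Replication-dependent histone genes, whose messages usually lack a poly(A) tail, had 6 tested members of 67 in the files. Their median transcript length was 1692.5 bases, and whether the counted transcripts carry a tail was not tested. Of the 6, 4 were apart on the higher side in KO-F1 and 0 on the lower side, and 0 had an unadjusted p under 0.05. The median log2 fold change was 0.68 (0.51 after the length correction, and 0.43 without Ctrl-F1 replicate 2). Rn45s, which lies outside the poly(A) pool, stood at 6456 and 6653 CPM in Ctrl-F1 and 12111 and 16712 CPM in KO-F1. It passed in DESeq2 (adjusted p = 2e-05) but not in edgeR (adjusted p = 0.35). Major urinary proteins had 0 of 16 tested genes apart in either direction, and their share of all counts was 2.51% and 1.77% in the Ctrl-F1 libraries, beside 1.84% and 2.36% in the KO-F1 libraries.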
